A study of Mus musculus with 12 samples.

Results

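Circular RNAs (circRNAs) were compared in whole blood between mice after 5 min of middle cerebral artery occlusion (MCAO) and sham-operated mice. The comparison rests on 6 of the 12 arrays of the series, the 3 labelled as MCAO for 5 min and the 3 labelled as sham at 0 h. The other 6 arrays (MCAO for 3 h and 24 h) entered the normalization, the choice of tested probes and the estimate of the spread. All were adult male Balb/c mice. Their age is 8 weeks by the sample labels, while the methods give an older one. In MCAO mice a silicon-coated nylon monofilament was passed into the vessel lumen to block the artery that supplies much of the forebrain, under isoflurane anesthesia. Sham mice had the same operation with an occlusion time of 0 min, so anesthesia and surgery were common to both groups and the occlusion was what set them apart by label. Blood was drawn by cardiac puncture. RNA was digested with RNase R, which degrades linear RNA, before Cy3 labeling and hybridization to the Arraystar Mouse circRNA Array v2, an Agilent one-colour array. No label says whether the RNA of an array came from 1 mouse or from a pool, while the supplement of the study speaks of biological replicates.

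CircRNAs are closed loops made by back-splicing, in which the end of a downstream exon is joined to the start of an upstream exon of the same transcript. Having no free ends, they resist exonucleases and outlast their linear host mRNAs. Platelets and red blood cells have no nucleus and hold many circRNAs that they inherited from their precursors, and leukocytes make their own. In whole blood, fewer cells of a type and less RNA per cell cannot be told apart. None of the probes that could be named measures an mRNA that defines a blood cell type, so the labelled tissue could not be checked against such markers.

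The deposited array data hold probe numbers without names. Names come from the list of circRNAs that the study published, in which 902 of 903 entries matched 1 probe each, and 901 of these were tested. The study drew up that list from these arrays as circRNAs that changed at one of its time points, so the share of them that is called here is fixed in part by that choice. A further 404 called probes carry no name.

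The circRNA sequences themselves could not be read here, but the start of the circle could be shown for the few circRNAs whose upstream exon begins close to an annotated transcript start. They are shown because back-splicing uses the splice acceptor at this exon. The 120 bases around it are given 5′ to 3′ on the strand of the gene (RefSeq, GRCm38.p6), the intron in lower case and the first 30 bases of the circle in capitals. Dido1 mmu_circRNA_35065 (chr2:180692019-180692138, minus strand) rose the most at 5 min among the 10 probes that rose by 2 log2 units or more, Phf21a mmu_circRNA_34079 (chr2:92221382-92221501, plus strand) belongs to a host gene with 4 falling circRNAs, and Ctbp2 mmu_circRNA_002466 (chr7:133081831-133081950, minus strand) fell by 1.33 log2 units and was chosen, outside the naming rule, because its acceptor could be read.
Dido1 mmu_circRNA_35065: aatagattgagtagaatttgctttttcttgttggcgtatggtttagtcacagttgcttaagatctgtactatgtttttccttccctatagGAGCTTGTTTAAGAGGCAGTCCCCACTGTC
Phf21a mmu_circRNA_34079: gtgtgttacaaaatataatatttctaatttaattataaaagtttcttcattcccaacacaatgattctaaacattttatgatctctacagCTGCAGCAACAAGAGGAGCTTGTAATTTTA
Ctbp2 mmu_circRNA_002466: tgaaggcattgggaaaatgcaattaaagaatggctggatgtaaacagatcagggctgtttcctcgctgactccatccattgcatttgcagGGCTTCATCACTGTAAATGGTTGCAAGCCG
In each of them the intron ended in AG, as did those of all 9 circRNAs whose 5′ end could be read. Of the last 20 intron bases, 15 were pyrimidines for Dido1, 12 for Phf21a and 13 for Ctbp2.

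Promoters are shown for the host gene whose circRNAs rose together and for a platelet channel whose circRNAs fell together. The 120 bases before the annotated transcript start (RefSeq, GRCm38.p6, 5′ to 3′ on the strand of the gene) lie at chr3:73066231-73066350 for Gm20754 and at chr9:8544022-8544141 for Trpc6, both on the plus strand.
Gm20754: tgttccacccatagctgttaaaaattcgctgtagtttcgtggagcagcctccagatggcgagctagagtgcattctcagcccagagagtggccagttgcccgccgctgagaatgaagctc
Trpc6: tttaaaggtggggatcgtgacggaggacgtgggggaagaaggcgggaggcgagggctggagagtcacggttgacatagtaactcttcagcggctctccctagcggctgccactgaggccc
The 300-base window around the start held 46% G and C for Gm20754 and 60% for Trpc6, against a median of 52.7% over 32851 windows of mouse genes. Neither window held the TATA box TATAAA on either strand, which 13.6% of all windows hold. The same was true of AGATAA, the letters bound by factors of the GATA family, found in 11.2% of all windows, and of the cAMP response element TGACGTCA, found in 1.79%.

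Before the results, the arrays themselves need a description, because the replicates of both groups were linked. Linear intensities less local background were divided by the geometric mean of each array over 3284 bright circRNA probes. On that scale, sham 2 was 0.320 times sham 1 plus 0.628 times sham 3, with a residual SD of 0.052 log2 units. This residual SD is a robust one from the median absolute residual, so outlying probes weigh little. Spots of the same probe within that array scattered by 0.063 log2 units. That is a plain SD over mRNA probes printed more than once, so the measures differ in kind. The array of 5 min 3 was 0.293 times 5 min 1 plus 0.664 times 5 min 2, with a residual SD of 0.067 against a spot-to-spot SD of 0.049. For the other 10 arrays the best weighted sum of a pair of arrays left 0.175 to 0.935. Each group therefore holds 2 arrays that are not a sum of the others, and the p-values below count the third as a replicate of its own. The calls are given with and without these 2 arrays. Of the 81 circRNAs that the naming rule chose, 0 kept the call in a fit of the other 10 arrays, and 40 kept it in a fit of the other 4 arrays of both groups alone. With 2 arrays against 2, an exact permutation test cannot give a two-sided p below 0.333, and with 3 against 3 not below 0.1. Sham 1 was moreover nearer to 5 min 2 and 5 min 3 than to sham 3. Its correlation over the tested probes was 0.944 with 5 min 2, 0.949 with 5 min 3 and 0.911 with 5 min 1. It was 0.918 with sham 3 and 0.959 with sham 2.

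**Figure D1:**
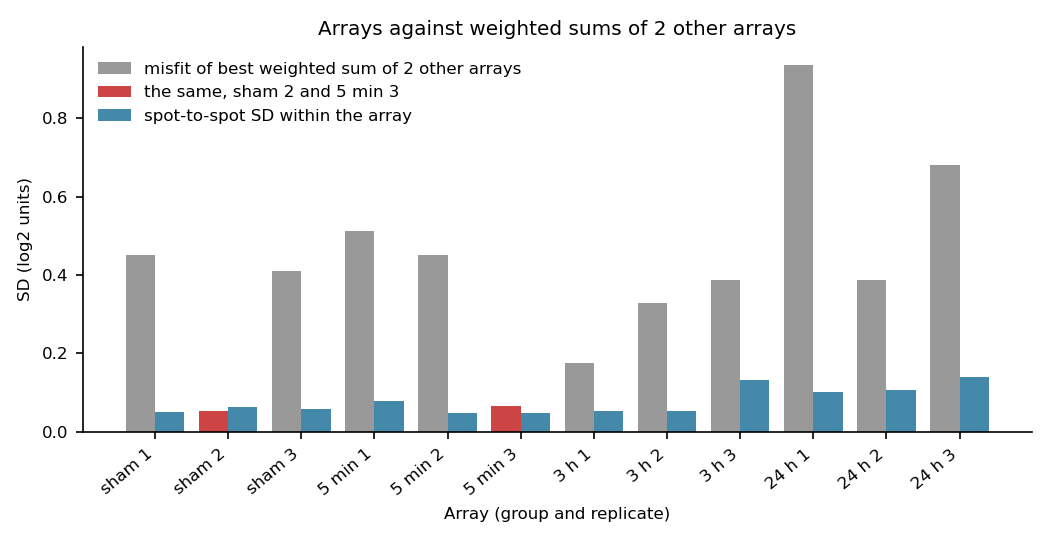
Misfit (robust SD in log2 units, circRNA probes) of the best weighted sum of 2 other arrays for each of the 12 arrays. Beside it is the plain SD between spots of the same probe within the array, from mRNA probes printed more than once. Sham 2 (0.052) and 5 min 3 (0.067) lie near the spot-to-spot SD of their array, and the other arrays lie at 0.175 or above.

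The arrays of 5 min were also dimmer. The median raw intensity was 83, 103 and 112.75 in sham replicates 1 to 3 and 50, 69 and 62 at 5 min, and 84.6 to 85.45% of the circRNA spots were well above background in sham against 70.89 to 77.09% at 5 min. All 6 arrays lay on 1 slide, with the sham arrays and 5 min 1 in the first row and 5 min 2 and 5 min 3 in the second. All arrays of 3 h and 24 h lay in a second row too, so a term for the row rests on 5 min 1 against 5 min 2 and 5 min 3. With that term the fitted change is that of 5 min 1 alone against sham, here and in every row-term value below. It therefore cannot tell the row from the array. The part of brightness and of place on the slide in the changes below was not tested. Values are log2 of background-corrected, quantile-normalized intensity. A circRNA is called when its adjusted p in limma (Benjamini-Hochberg) is at most 0.05, and it is said to have risen or fallen only then.

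At 5 min, 562 of the 10678 tested circRNA probes were called (5.26%), 183 higher (1.71%) and 379 lower (3.55%). The falls were also the larger changes, with a median of -1.66 log2 units against 1.24 for the rises. Only 10 probes rose by at least 2 log2 units, that is 4-fold (0.0937%), whereas 116 fell by as much (1.09%). That split turned to 160 rises and 49 falls of this size with the row of the slide as a term. Across all tested probes the median change was 0.10, and the median SE of a change was 0.35. Without regard to the test, the 3 arrays of 5 min lay below all 3 sham arrays for 1707 probes (16%) and above them for 2498 (23.4%). Quantile normalization gives every array the same distribution of values, so larger falls must be balanced by rises elsewhere, and the 2 shares are not independent of each other. At an unadjusted p below 0.05 there were 2843 probes, 1479 of them higher.

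None of these calls was kept by limma in a fit of the 10 arrays other than sham 2 and 5 min 3, a step added after the data were seen. The smallest adjusted p was then 0.287, and 1097 probes had an unadjusted p below 0.05. All 562 probes kept their direction and an unadjusted p below 0.05. That was largely fixed in advance, since they were selected on these arrays and the 2 left out are near weighted sums of arrays kept. Leaving out either array alone left 1 call, that of Bbs9 mmu_circRNA_43867. A fit of sham 1, sham 3, 5 min 1 and 5 min 2 alone, with only 2 residual degrees of freedom among its arrays, called 77 probes (5 higher). Other arrays moved the count as well. It was 1318 without sham 1, 105 without sham 3, 231 without 5 min 1, 258 without 5 min 2, 203 without 3 h 1, 312 without 3 h 2, 224 without 24 h 2 and 1419 without 24 h 1. Falls were no longer the majority without 5 min 2, with 134 probes called higher and 124 lower, and 30 higher and 55 lower by at least 2 log2 units. The direction of the calls also changed with a term for the row of the slide, which sets 5 min 1 alone against sham. With the row of the slide as a term, 677 probes were called and 554 of them (81.8%) were higher, against 32.6% without it. Of the 81 named circRNAs, 28 were then called. Processed scanner signals gave 43.4% higher among 926 calls. In sham 1, sham 3, 5 min 1 and 5 min 2, 161 probes left a gap of at least 1 log2 unit between the groups with 5 min lower and 20 with 5 min higher, and 12 left a gap of 2 units, all with 5 min lower.

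**Figure D2:**
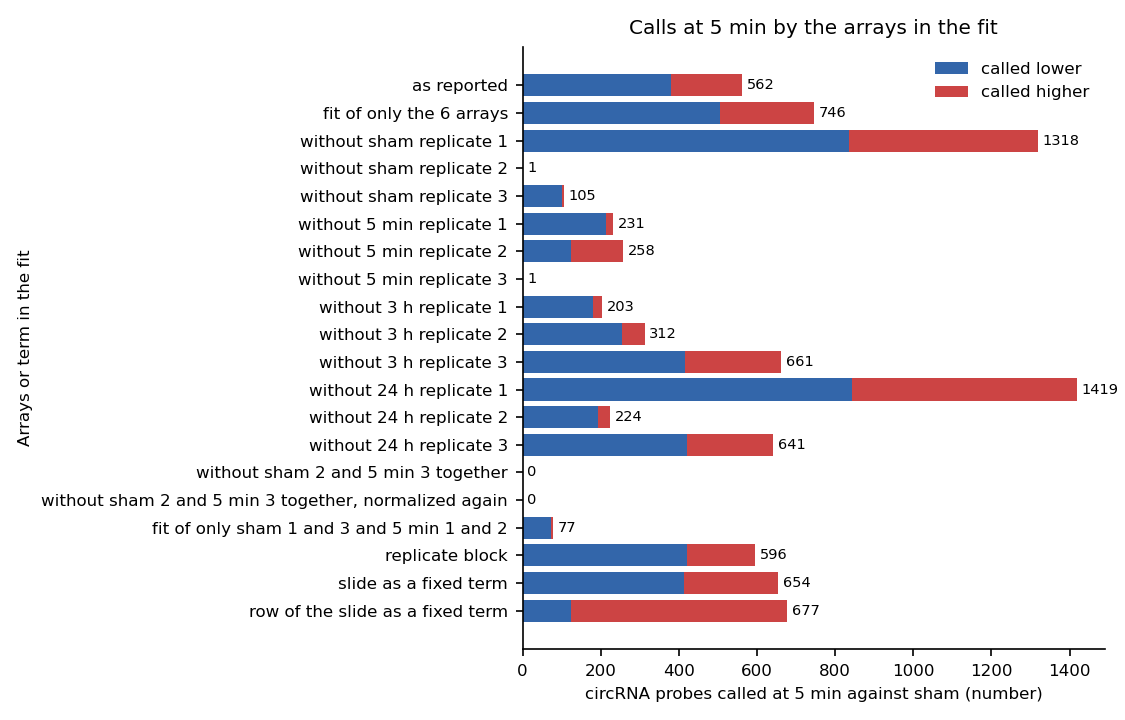
Number of circRNA probes called at 5 min against sham (limma, adjusted p at most 0.05), lower and higher, by the arrays or terms in the fit. The count is 562 with all 12 arrays, 1 without sham 2 or without 5 min 3, and 0 without both.

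**Figure D3:**
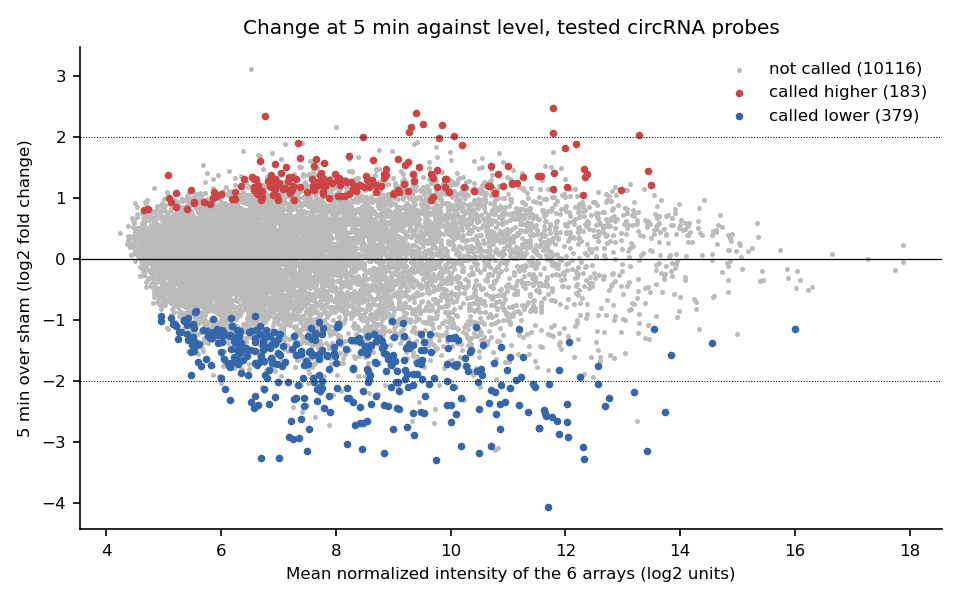
Log2 fold change of 5 min over sham against the mean normalized intensity of the 6 arrays (log2 units) for the 10678 tested circRNA probes. Called falls (379) reach beyond -2 at medium and high intensity, while few of the 183 called rises pass the dotted line at 2.

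Few of the calls came from the dimmest probes. Among the 1068 probes with the lowest mean level over the 12 arrays, 7 were called lower and 8 higher. Among the 1068 with a mean between 8.35 and 9.21 log2 units, 64 were called lower and 23 higher. Of the 562 called probes, 521 were well above background on all 6 arrays (181 higher and 340 lower).

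The calls with names comprised 131 falls and 27 rises, of which 124 changed by at least 2 log2 units. Among the falls, 104 were exonic, 21 were sense overlapping, 4 intronic and 2 intergenic. Among the rises, 20 were exonic, 2 sense overlapping and 5 intronic. The intronic rises include the 3 overlapping circles of Gm20754. Types were counted only for called circRNAs, so these counts cannot be set against the share of each type among all those tested.

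Bbs9 mmu_circRNA_43867 was the fall with the smallest adjusted p. Bbs9 is a subunit of the BBSome, the complex that carries membrane proteins to and from the cilium. The circRNA (chr9:22638730-22670957, plus strand, exonic, inside Bbs9) had normalized intensities of 9.93, 10.08 and 10.05 in sham replicates 1 to 3 and of 7.20, 6.59 and 6.92 at 5 min (log2 units). The groups were far apart, with every sham array near 10. It fell by 3.12 ± 0.31 log2 units (SE), or 8.68-fold, with an adjusted p of 0.00196 in limma, and it was the only named circRNA called in each of the 12 fits that left out 1 array. With the row of the slide as a term its adjusted p was 0.0287 in limma. In the fit of the 10 arrays other than sham 2 and 5 min 3 its change was -3.09 with an adjusted p of 0.287 in limma, and in that of the 4 other arrays of both groups its adjusted p was 0.00634. Another Bbs9 circRNA, mmu_circRNA_006404, with a neighbouring span on the same strand, lay at 11.18, 11.10 and 11.12 in sham and at 9.61, 7.86 and 8.75 at 5 min, and fell by 2.39 log2 units.

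The next named circRNAs by adjusted p in limma were of Igsf21, Gramd1c and Arhgap10, followed by that of Lyst, whose adjusted p of 0.011 was shared by those of Gsk3b (mmu_circRNA_29699), Mycbp2 (mmu_circRNA_27968) and Akap6 (mmu_circRNA_001149), described with their lists. All of them fell. Arhgap10 encodes a GTPase-activating protein. Its mmu_circRNA_003169 (chr8:77310731-77365160, minus strand) lay at 12.07, 12.10 and 12.09 in sham and at 9.66, 8.18 and 8.88 at 5 min. The sham arrays were nearly equal and the arrays of 5 min spread over more than a log2 unit, and the circRNA fell by 3.18 ± 0.41 (adjusted p = 0.0081 in limma). Igsf21 encodes an adhesion molecule of the immunoglobulin superfamily known from synapses. Its mmu_circRNA_37852 had a mean of 13.19 ± 0.23 in sham (SD, n = 3), with 13.45 in sham 1 as the highest array, and lay at 10.47, 10.70 and 10.43 at 5 min. It fell 6.29-fold (adjusted p = 0.00766 in limma). Gramd1c is a sterol transfer protein of the endoplasmic reticulum, and its mmu_circRNA_29747 lay at 8.29, 7.90 and 7.87 against 5.52, 5.61 and 5.80. The Gramd1c circRNA fell 5.19-fold, and both groups were tight for it as for that of Igsf21. Lyst, the lysosomal trafficking regulator whose loss gives the platelet and pigment defects of the beige mouse, had a circRNA (mmu_circRNA_26033) at 9.82, 9.61 and 9.65 against 7.29, 6.62 and 6.98, a fall of 6.63-fold. The circRNAs of Igsf21, Gramd1c, Arhgap10 and Lyst were each called in 10 of the 12 fits that left out 1 array. In the fit of the 10 arrays other than sham 2 and 5 min 3 their changes were -2.64, -2.51, -3.16 and -2.78 and none was called (adjusted p = 0.35 in limma for each). In the fit of sham 1, sham 3, 5 min 1 and 5 min 2 alone all 4 were called (adjusted p = 0.0227, 0.0101, 0.00673 and 0.0179 in limma).

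The deepest fall was that of Ankrd42 mmu_circRNA_41878 (chr7:92584466-92631662, minus strand). Its levels were 14.58, 13.59 and 13.03 in sham and 9.21, 10.02 and 9.75 at 5 min. The groups were 3.01 log2 units apart at their nearest arrays among the 4 that are not weighted sums. It fell by 4.07 ± 0.71 log2 units, or 16.8-fold (adjusted p = 0.0147 in limma).

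Other deep falls came with a wide spread in sham, where sham 1 was the highest array. Sppl2a, an intramembrane protease of lysosomes, had a circRNA (mmu_circRNA_34491) at 12.84, 11.21 and 10.13 in sham and at 7.63, 8.48 and 8.17 at 5 min. Cep350, a centrosomal protein, had one (mmu_circRNA_003795) at 14.99, 14.05 and 12.86 against 10.28, 10.97 and 10.83. Bbs2, another BBSome subunit, had one (mmu_circRNA_43344) at 10.33, 8.26 and 7.34 against 5.30, 5.56 and 5.25. In these 3 circRNAs sham 1 lay more than 2 log2 units above sham 3, while the arrays of 5 min lay close together. Zpbp, a sperm acrosome protein, had one (mmu_circRNA_22898) in the same order, at 12.12, 10.17 and 9.02 against 7.06, 7.46 and 7.24. Pcnx mmu_circRNA_25433 lay at 10.19, 8.80 and 8.25 against 5.77, 6.06 and 5.95. The changes of these 5 ranged from -3.30 to -3.15 log2 units.

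Phka2 mmu_circRNA_45921 (chrX:160523272-160533077, plus strand) was different in that sham was tight and bright, at 15.11, 14.95 and 14.95, and 5 min was spread, at 11.05, 12.78 and 11.71. Phka2 is the liver-type regulatory subunit of phosphorylase kinase, which starts glycogen breakdown. Its circRNA fell by 3.16 ± 0.52 log2 units, 8.92-fold, with an adjusted p of 0.0147 in limma.

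Rises were fewer and their groups lay closer together. Dido1, a nuclear protein that binds chromatin, had a circRNA (mmu_circRNA_35065, chr2:180683809-180692048) at 11.72, 10.53 and 9.37 in sham and at 13.94, 12.09 and 13.03 at 5 min. The lowest array of 5 min lay only 0.37 log2 units above the highest sham array. It rose by 2.48 ± 0.55 log2 units, 5.58-fold (adjusted p = 0.0296 in limma). Wdr11, a WD-repeat protein linked to cilia and the trans-Golgi, had one (mmu_circRNA_42362) at 9.32, 8.05 and 7.24 against 11.83, 9.57 and 10.41, with a gap of 0.25. Ryr2, a calcium release channel of muscle and neurons, had one (mmu_circRNA_26021) at 9.34, 8.08 and 7.25 against 11.18, 9.65 and 10.10. For these 3, sham 1 and 5 min 1 were the highest arrays of their groups.

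Another set of rises was that of Gm20754, a predicted gene on chromosome 3, all of whose called circRNAs are intronic and begin at the same base (73277866, plus strand). The circle mmu_circRNA_35587, which ends at 73333103, lay at 8.00, 8.52 and 8.72 in sham and at 10.42, 10.76 and 10.71 at 5 min. The circle mmu_circRNA_35588, which ends at 73339144, lay at 8.43, 8.83 and 9.04 against 10.83, 11.04 and 10.99. The circle mmu_circRNA_35589, which ends at 73341175, lay at 8.52, 9.17 and 9.48 against 10.99, 11.15 and 11.07. In each the arrays of 5 min lay close together, and 5 min 1 and 5 min 2 were at least 1.50 log2 units above sham 1 and sham 3. They rose by 2.22, 2.19 and 2.01 log2 units (adjusted p = 0.0147, 0.0245 and 0.0172 in limma), and another circle of the gene had a change of 1.35 that was not called. Since they share a start and most of their span, the 3 circles are not independent.

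Slc29a2 is a nucleoside transporter of the cell membrane. Its mmu_circRNA_32190 lay at 11.39, 10.67 and 10.22 in sham and at 12.81, 12.81 and 12.86 at 5 min, a rise of 4.19-fold (adjusted p = 0.0147 in limma). Ets1, a transcription factor of lymphocytes, had a circRNA (mmu_circRNA_43955) at 8.10, 8.20 and 8.36 against 11.88, 8.98 and 10.29. Its sham arrays were nearly equal and its arrays of 5 min spanned almost 3 log2 units, and its adjusted p was 0.049 in limma. A sense-overlapping circRNA of Gm553 (mmu_circRNA_20066) and one with no symbol (mmu_circRNA_011174) rose by 2.03 and 2.35 log2 units. Of the 10 rises, only mmu_circRNA_011174 and Dido1 were called in the fit of the 4 arrays that are not weighted sums (adjusted p = 0.0287 and 0.0438 in limma).

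**Figure D4:**
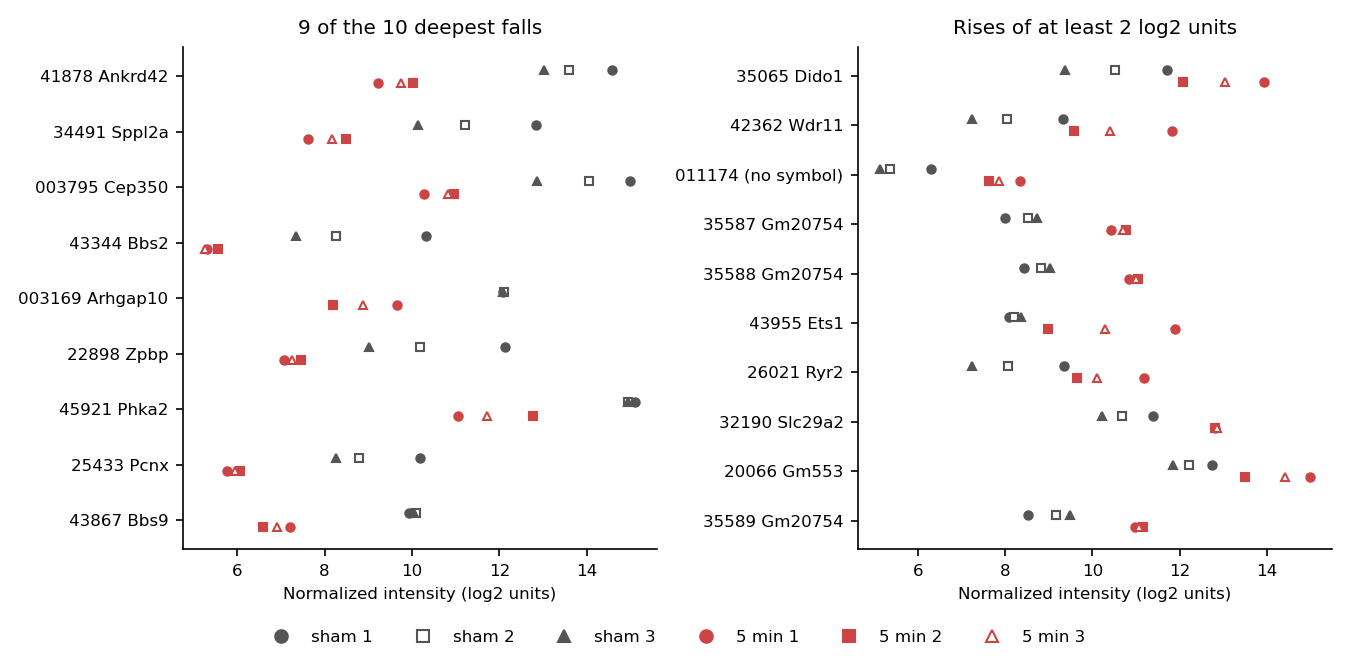
Normalized intensity (log2 units) in each of the 3 sham arrays (grey) and 3 arrays of 5 min (red) for 9 of the 10 deepest falls and the 10 rises of at least 2 log2 units. Open symbols mark sham 2 and 5 min 3, which lie between the other 2 arrays of their group or close to them.

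Several host genes gave more than 1 called circRNA. Among them, only Pcnx had calls in both directions. Of its 3 circRNAs tested, 1 was called lower and 1 higher, with changes from -3.15 to 1.15 log2 units. Utrn, which encodes the dystrophin relative utrophin, and Phf21a, a histone reader of the LSD1 corepressor complex, had 4 each, with changes of -2.53 to -2.18 and of -2.58 to -2.44 log2 units. Trpc6, Mkln1, Usp3, St6galnac3 and 4930447N08Rik had 3 each, all lower. For Trpc6, a cation channel of platelets and smooth muscle, mmu_circRNA_013636 lay at 11.61, 12.45 and 12.73 in sham and at 10.30, 8.63 and 9.46 at 5 min, and it fell by 2.80 log2 units. Trpc6 mmu_circRNA_43742 lay at 11.17, 11.93 and 12.06 against 10.23, 8.26 and 9.30. Mkln1, a subunit of a ubiquitin ligase complex, had mmu_circRNA_009396 at 11.58, 13.43 and 13.77 against 9.67, 10.55 and 10.23. Usp3, a deubiquitinase of histones, had mmu_circRNA_008057 at 8.14, 10.38 and 10.79 against 6.74, 7.38 and 7.12. In Mkln1 and Usp3 sham 1 was the lowest sham array, whereas in Utrn it was the highest, at 11.70 against 11.30 and 11.06 for mmu_circRNA_004868. St6galnac3, a sialyltransferase, had the tightest sham arrays of this group, at 12.76, 12.75 and 12.73 for mmu_circRNA_010337, against 11.18, 10.25 and 10.65. In 5 host genes (Utrn, Phf21a, St6galnac3, Mkln1 and Usp3) a pair of these circRNAs had both ends within 10 bp of each other, so that their probes may read the same circle.

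All lists of host genes were drawn up with earlier results of these data known. Their counts, shares and medians are thus fixed in part by that choice and are not independent evidence of a direction. By list of host genes, the falls of the platelet and megakaryocyte list all came from the genes entered first on it. These were Ano6, F13a1, Ltbp1, Lyst, Med12l, Pde5a, Sh3bgrl2 and Trpc6. Of 18 named circRNAs tested on this list, 12 fell, none rose and 6 were not called, with a median change of -2.40. Among all 901 named circRNAs there were 131 falls and 27 rises (17.5% called, median 0.41). Med12l mmu_circRNA_014005 lay at 13.20, 13.40 and 13.50 in sham and at 12.15, 9.07 and 10.84 at 5 min, and fell 6.41-fold. Ltbp1, which binds latent TGF-beta, had mmu_circRNA_30941 at 13.47, 13.09 and 12.66 against 11.70, 9.16 and 10.55. Sh3bgrl2, F13a1 (the coagulation factor XIII A chain), Pde5a (the cGMP phosphodiesterase) and Ano6 (the scramblase that exposes phosphatidylserine) had changes between -2.42 and -2.16. In Med12l and Ltbp1, 5 min 1 lay over 2 log2 units above 5 min 2, and 5 min 3 lay between them. With the row of the slide as a term, 2 of these 12 falls kept their call, 1 other member was called higher, and the median was -1.41. The row term sets 5 min 1 alone against sham. Calls lost with it included those of Med12l, Ltbp1, Pde5a, Trpc6 and Lyst mmu_circRNA_26040. In each of these 5 min 1 was the highest array of 5 min, so the loss cannot be read as an effect of place on the slide. The fit of sham 1, sham 3, 5 min 1 and 5 min 2 alone called 8 members, all lower. In the fit of all 12 arrays without the row term, no circRNA outside the hosts entered first on the list was called. The changes were -0.87 for Prkg1, -0.85 for Pik3cb, 0.16 for Stim1, 0.90 for Ptk2b and 1.17 for Cd36. Over the 18 members the mean level was 10.08, 9.76 and 9.54 in sham and 8.56, 7.51 and 8.11 at 5 min.

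Of 10 circRNAs of lymphocyte and antigen receptor signalling genes, 7 fell, Ets1 rose and 2 were not called (median -1.79). Tec, a kinase of antigen receptor and platelet signalling, had mmu_circRNA_38765 at 9.62, 9.84 and 9.97 in sham and at 8.49, 5.61 and 7.27 at 5 min. Inpp4b, a phosphoinositide phosphatase, had mmu_circRNA_43161 at 12.01, 12.13 and 12.23 against 10.71, 8.87 and 9.76. Vav3, a guanine nucleotide exchange factor, had mmu_circRNA_35991 at 12.69, 11.84 and 11.19 against 10.71, 8.97 and 9.84. In these 3 the second array of 5 min was the lowest. The shares called were 80% (lymphocyte), 33.3% (erythroid) and 20% (granulocyte and monocyte), against 17.5% of all named circRNAs. Like the counts, these shares depend in part on the choice of genes. Of 3 circRNAs of erythroid genes, that of Exoc6 fell by 2.10 and the others were not called (median 0.43). Of 5 circRNAs of granulocyte and monocyte genes, that of Pstpip2 fell by 2.06 and the others were not called (median 0.08, range of those from 0.01 to 0.39). Of the genes on these lists, 13 of 48 (platelet), 6 of 38 (lymphocyte), 3 of 24 (erythroid) and 4 of 28 (granulocyte and monocyte) had a named circRNA, and the mRNAs that define the cell types were not measured. With the row of the slide as a term, no lymphocyte circRNA was called lower and 1 was called higher (median -1.08), and none of the erythroid or granulocyte and monocyte circRNAs was called (medians 0.51 and -0.02).

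On the list of neuronal host genes 19.6% of the circRNAs were called, beside 17.5% of all named circRNAs. A named circRNA existed for 44 of the 49 genes on this list, and all called hosts but Dcc are among the genes entered first. The share called thus depends on which hosts were listed, and the comparison cannot speak for neuronal hosts in general. Of 51 tested, 8 fell, 2 rose and 41 were not called (median 0.74). With the row of the slide as a term, 13 were called higher and 3 lower. Kcnq5, a potassium channel, had mmu_circRNA_19729 at 10.92, 9.62 and 8.60 in sham and at 7.09, 6.38 and 6.55 at 5 min. Camk1d, a calcium/calmodulin-dependent kinase, had mmu_circRNA_32884 at 14.36, 13.53 and 12.62 against 11.21, 10.10 and 10.45. Akap6, an anchor of protein kinase A, had mmu_circRNA_001149 at 11.59, 10.76 and 10.06 against 8.58, 7.38 and 7.79. Their changes were -3.04, -2.92 and -2.89 log2 units, with sham 1 the highest array of each. Nbea and Cacnb2 circRNAs had tighter sham arrays, at 8.43, 8.81 and 8.96 and at 13.59, 13.19 and 13.16. The 2 rises were of Ryr2 and of Dcc, a netrin receptor (1.39).

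CircRNAs of signalling genes are given beside the 131 falls and 27 rises of all named circRNAs, most of which were falls too. Of 20 circRNAs of PDGF and Ras signalling genes, 9 fell, 1 rose and 10 were not called (median -1.12). Of 16 of insulin signalling and phosphorylase kinase genes, 10 fell and 6 were not called (median -2.31). The shares called were 50% and 62.5%, against 17.5% of all named circRNAs. Both lists hold genes that the study picked on these arrays, so their counts and shares are not independent evidence of a direction. With the row of the slide as a term, the first list held 4 rises and 3 falls and the second 2 rises and 4 falls. Gsk3b, the glycogen synthase kinase, had mmu_circRNA_29699 at 10.81, 10.26 and 10.11 in sham and at 7.81, 7.38 and 7.60 at 5 min, a fall of 6.94-fold. Pdk1, a kinase of pyruvate dehydrogenase, had mmu_circRNA_33850 at 11.24, 11.18 and 11.18 against 9.45, 8.29 and 8.67. Tsc2, the tuberin subunit that restrains mTORC1, had an intronic circRNA (mmu_circRNA_012978) at 15.94, 14.93 and 14.12 against 12.41, 12.58 and 12.48. CircRNAs of Phkb and Inpp4b fell, with changes of -2.27 and -2.34, and those of Hk1 and Hk2 (hexokinases) were not called, at 1.00 and 1.19.

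Of 27 circRNAs of calcium signalling genes, 10 fell, Ryr2 rose and 16 were not called (median 0.16), and the row term gave 4 rises, 2 falls and a median of -0.64. Erbb3 mmu_circRNA_22800 (a receptor of the EGF receptor family) lay at 13.39, 12.60 and 11.82 in sham and at 10.84, 9.44 and 9.99 at 5 min. Of 14 circRNAs of cyclic nucleotide signalling genes, 4 fell and 10 were not called (median -1.09), and the row term gave 1 rise and 1 fall. Ric8b, a chaperone of G protein alpha subunits, had mmu_circRNA_004072 at 11.34, 11.86 and 11.96 against 9.59, 7.68 and 8.69, and Adcy5, an adenylyl cyclase, had mmu_circRNA_29619 at 14.41, 13.90 and 13.38 against 12.32, 10.74 and 11.39. Of 22 circRNAs of cilium genes, 8 fell, Wdr11 rose and 13 were not called (median 0.26), and the row term gave 5 rises and 2 falls. The falls were of Bbs2, Bbs9, Cep350, Rp2 and Odf2l. The shares called on the calcium, cyclic nucleotide and cilium lists were 40.7%, 28.6% and 40.9%, against 17.5% of all named circRNAs. These shares are fixed in part by how the lists were drawn up.

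Of 30 circRNAs of vesicle trafficking genes, 11 fell and 19 were not called (median -0.60), and the row term gave 2 rises and 1 fall. Copg1, a coatomer subunit, had mmu_circRNA_40539 at 10.31, 8.27 and 7.35 in sham and at 5.48, 6.05 and 5.66 at 5 min. Uso1, a Golgi tethering factor, had mmu_circRNA_38977 at 8.22, 9.02 and 9.28 against 5.98, 7.08 and 6.48, and Rab11a, a GTPase of recycling endosomes, had mmu_circRNA_44440 at 11.26, 11.32 and 11.36 against 9.87, 8.25 and 9.00. Sham 1 was the highest sham array for Copg1 and the lowest for Uso1. All 28 genes of the vesicle trafficking list and all 25 of the ubiquitin and SUMO list had a named circRNA. Both lists therefore hold only hosts of circRNAs that the study listed as changed. The shares called on the vesicle, ubiquitin and DNA repair lists were 36.7%, 32.3% and 7.14%, against 17.5% of all named circRNAs. Of 31 circRNAs of ubiquitin and SUMO genes, 10 fell and 21 were not called (median -0.19), and the row term gave 4 falls. Mycbp2, a neuronal ubiquitin ligase, had mmu_circRNA_27968 at 7.85, 8.13 and 8.26 against 5.57, 6.03 and 5.85. Of 14 circRNAs of DNA repair genes, that of Pms1, a mismatch repair gene, fell by 2.02 and 13 were not called (median 0.12), and the row term gave 2 rises, no fall and a median of -0.42.

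**Figure D5:**
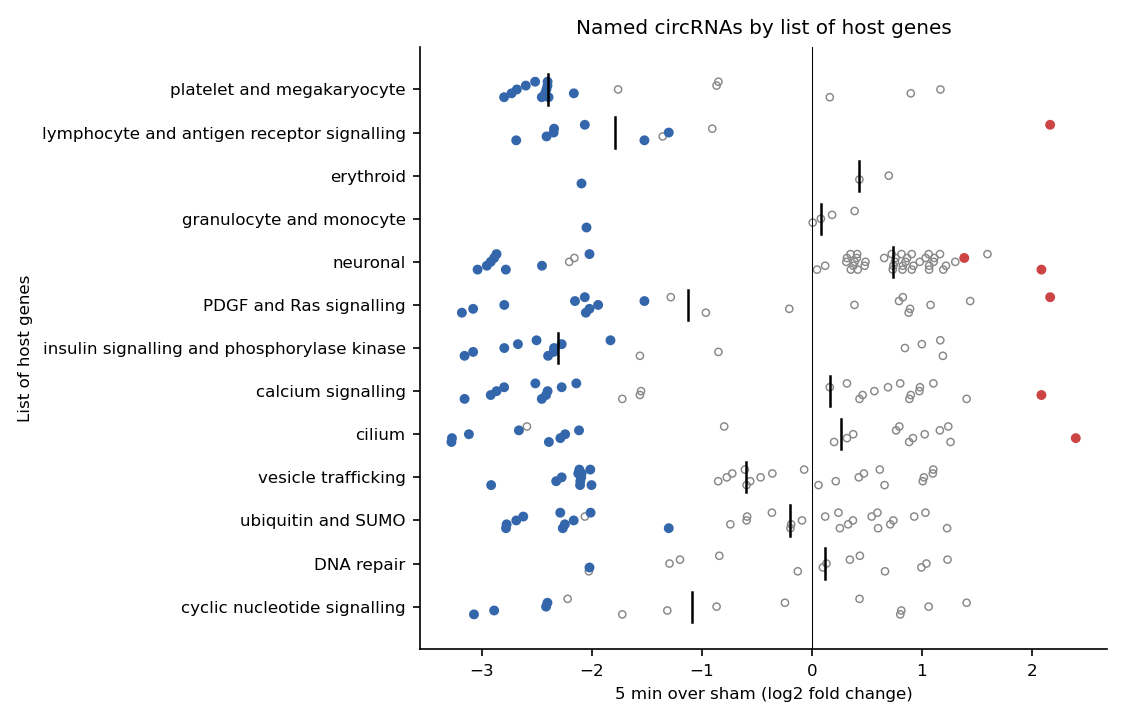
Log2 fold change of 5 min over sham for each named circRNA, by list of host genes. Filled points are called (blue lower, red higher), open points are not, and the black bar is the median, which is lowest for platelet and megakaryocyte genes (-2.40) and highest for neuronal genes (0.74). The lists were chosen with earlier results of these data known, and all falls of the platelet list are of the genes entered first on it.

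The 131 named falls differed in how the arrays within a group were ordered. In 34 of them sham 1 lay at least 1 log2 unit above sham 3, among them those of Bbs2, Zpbp, Sppl2a and Copg1. In 32 sham 3 lay at least 1 above sham 1, among them those of Usp3, Mkln1, Rp2, Exoc6, Snx27 and Pms1. In the other 65 these arrays were within 1 log2 unit, and this set held most of the platelet hosts (Med12l, Pde5a, Ltbp1, F13a1 and Ano6) along with those of Utrn, Phf21a and Inpp4b. In 39 of the 65, 5 min 1 lay at least 1 above 5 min 2. Both groups were within 1 log2 unit in 24. The median changes of the 3 sets were -2.47, -2.21 and -2.38. These sets were formed from the values and carry no test.

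In 80 of the 131 named falls the 4 arrays that are not weighted sums left a gap of at least 1 log2 unit between the groups, and in 12 falls a gap of at least 2. The same gap of 1 was found in 6 of the 27 named rises. The 12 with a gap of 2 were the circRNAs of Ankrd42, Bbs9 (mmu_circRNA_43867), Cacnb2, Arhgap10 (mmu_circRNA_003169), Lyst (mmu_circRNA_26033), Gsk3b, Igsf21, Nbea, Gramd1c, Pcnx and Phka2, and that of Hic2 (mmu_circRNA_29357), which lies outside the naming rule.

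At the later times, compared with the same sham arrays, 453 probes were called at 3 h (4.24%) and 3398 at 24 h (31.8%). The arrays of 24 h lay on another slide than sham. All 3 comparisons share their sham arrays, so their values are only set side by side. Bbs9 mmu_circRNA_43867 had log2 fold changes of -3.12, -1.16 and -0.74 over the 3 times in order, with adjusted p of 0.00196, 0.0581 and 0.0874 in limma. In this order, Phka2 had changes of -3.16, -2.83 and -4.42, and Bbs2 of -3.27, -2.52 and -3.99, each called at all 3 times. Akap6 had -2.89, 0.06 and -1.67, and Trpc6 mmu_circRNA_013636 had -2.80, -0.33 and -0.37. Gm20754 mmu_circRNA_35589 had 2.01, 0.53 and -1.41. Wdr11 had 2.40, 3.13 and 4.18 and was called each time, whereas Dido1 had 2.48, 0.57 and 0.04.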

How the data were processed

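Whole-blood RNA was measured on 12 one-colour arrays, of which 3 of sham and 3 of MCAO for 5 min are compared. The authors deposited the scanner output of each array, whose values are intensities on a linear scale read with Agilent Feature Extraction 11.0.1.1 (per the submitters' processing notes), and a table of log2 values that they had normalized with limma; the latter served as an alternative. Each circRNA probe is printed once, and the number of arrays limits the precision.

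The median pixel of each spot was background-corrected by normexp (offset 0, local background median), quantile normalized over the 12 arrays and brought to log2 in limma 3.58.1 (R 4.3.3). The spot median was used because the spot mean is not among the columns. A circRNA probe was tested when it exceeded 1.1 times the 95th percentile of 77 negative control spots on all 12 arrays, which kept 10678 of 14236. Spots marked as outliers were set to missing (at most 4 on any of the 6 arrays). A model of 4 groups gave moderated two-sided tests with a mean-variance trend (8 residual and 5.05 prior degrees of freedom), with Benjamini-Hochberg adjustment over the tested probes. SEs are the moderated ones of limma. The labels call the arrays replicates without saying that they came from separate mice, and the supplement of the study calls them biological replicates. Given the weighted sums described above, p-values are read here as measuring only the spread between these arrays. The procedure was tested on simulated data with independent noise on each array, so that test did not cover linked arrays.

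A probe took the name of a published circRNA when mean and fold change matched within 5e-04 under the settings that give that list, and the next nearest probe was at least 0.008 away. Equality with that list is thus a condition of the naming. The list was read from page images, so listed symbols and coordinates may hold reading errors. Gene symbols were compared with RefSeq genes (GRCm38.p6) at the listed place: 800 were found there, 41 differed by at most 2 letters, 15 were synonyms, 11 were not found and 35 entries had no symbol. Coordinates are mm10, with starts moved to count from 1. Named are all rises of at least 2 log2 units, the 10 deepest falls, the 5 smallest adjusted p and the 5 most stable calls, up to 6 called members of each list of host genes, host genes with at least 3 called circRNAs, and the circRNAs that the study drew for 5 min. Some circRNAs under this rule are not reported here. Gene lists, members and tests were chosen with earlier results of these data known. Columns of the authors' own comparisons served only for the naming. Same-numbered arrays of the groups did not deviate together (r = -0.058, 0.02 and -0.106 across probes), so the numbers do not pair the arrays. Alternatives changed background, normalization, filter, empirical Bayes step, slide terms, replicate block, adjustment and arrays; 4 of them were chosen after seeing the data.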

Additional observations from a re-analysis of the deposited data

Results flagged for a closer look

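For 16 of the named circRNAs the change against sham differed between 3 h and 5 min, by the contrast of both times in limma (adjusted p at most 0.05 over all tested probes). In 13 the level at 3 h was the higher one. The log2 difference of 3 h over 5 min was 2.94 for Akap6 (mmu_circRNA_001149), 2.79 for Kcnq5 (mmu_circRNA_19729), 2.54 for Erbb3 (mmu_circRNA_22800), 2.46 for Trpc6 (mmu_circRNA_013636), 2.45 for Lyst (mmu_circRNA_26033), 2.30 for Adcy5 (mmu_circRNA_29619) and 2.07 for 4930447N08Rik (mmu_circRNA_013908). It was 1.96 for Bbs9 (mmu_circRNA_43867), 1.92 for Arhgap10 (mmu_circRNA_003169), 1.89 for Tec (mmu_circRNA_38764), 1.89 for Utrn (mmu_circRNA_21668), 1.76 for Uso1 (mmu_circRNA_38977) and 1.71 for Gramd1c (mmu_circRNA_29747). The 3 circRNAs that were lower at 3 h were those of Gm553 (-2.18), Slc29a2 (-1.57) and mmu_circRNA_011174 (-1.96), all of which rose at 5 min. Every one of the 16 was chosen for its change at 5 min, so a difference in this direction is partly fixed by the choice. In the fit of the 10 arrays other than sham 2 and 5 min 3 none had an adjusted p at most 0.05 in limma (smallest 0.235), and all 16 had an unadjusted p below 0.05. The third array of 3 h lay on the other slide. The part of slide was not tested for these differences.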

How the results depend on the processing

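No alternative turned the direction of any of the 81 named circRNAs. They were chosen by their calls on these same arrays, so that outcome was fixed in part by the choice. With all 12 arrays, 562 probes were called at 5 min, 126 of them by at least 2 log2 units, along with 81 named circRNAs and 77 members of the gene lists. Fitting the 10 arrays other than sham 2 and 5 min 3, with or without normalizing again, gave 0, 0, 0 and 0 by limma, and the fit of the 4 remaining arrays of both groups gave 77, 63, 40 and 36. These fits, and that with the row of the slide as a term (677 probes, of which 209 by at least 2 log2 units, 28 named circRNAs and 47 list members), were chosen after seeing the data. The row term turned the split from 183 higher and 379 lower to 554 higher and 123 lower, that of at least 2 log2 units from 10 and 116 to 160 and 49, and that of the list members from 4 and 73 to 30 and 17.

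Leaving out 1 array of the 12 gave 1 to 1419 called probes, 1 to 301 with at least 2 log2 units, 1 to 81 named circRNAs and 1 to 93 list members. The lowest values were those without sham 2 or without 5 min 3, and without 5 min 2 the split was 134 higher and 124 lower. Cyclic loess called 873 probes, processed signals 926 (43.4% higher) with 195 of at least 2 log2 units, and adjustment over the 3 comparisons together 1022. Array weights called 8667 (57.7% higher), 261 of at least 2 log2 units and 208 list members. They gave sham 2 and 5 min 3 weights of 21.4 and 12.2, against 0.243 to 1.06 for the other 4 arrays of these groups. An offset of 50 left 79 of at least 2 log2 units. The replicate block, with numbers that do not pair the arrays, called 596 probes, 144 of at least 2 log2 units, 80 named circRNAs and 83 list members. The other alternatives stayed within 1.5 times of each count, between 422 probes with no filter on dim probes and 787 with all steps on the 6 arrays. Near-identical junctions counted once left 121 of the 126. The cause of these shifts was not tested, and with the row term the change rests on 5 min 1 alone for its group. The dimmer signal at 5 min limits what can be read of weak circRNAs.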
